A study of Mus musculus with 10 samples.

Results

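The genes described here are 47 genes of mitosis: the kinases and cyclins that drive cell division, the spindle assembly checkpoint, the chromosomal passenger complex, the kinetochore, spindle motors, and the machinery of cytokinesis and chromosome condensation. They are a list of gene names, drawn up with earlier results of these data known, and each was read from the probe set that carries its symbol alone, taking the one with the highest mean over all arrays where a gene had several. On this rule 46 of the 47 were measured, out of 19938 genes with a probe set of their own. Ccnb1, which encodes cyclin B1, had no such probe set in the annotation used and was not analysed here. Of the 46, 42 had a mean signal above the median of the tested probe sets, which says that their probe sets are bright and not how much RNA each gene has relative to others. Top2a alone had a second probe set, with a mean log2 level of 3.68 and a log2 difference of -0.13, and the brighter one was used.

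The arrays (Affymetrix Mouse Gene 1.0 ST) measured RNA of mouse haematopoietic stem cells sorted as CD150+CD48-Lineage-Sca1+cKit+ from bone marrow. The Sox17-transgenic group had 5 arrays, from mice carrying both (tetO)7CMVSox17-IRES-NucEGFP, a doxycycline-responsive Sox17 construct, and, from a B6.Cg strain, Gt(ROSA)26Sortm1(rtTA*M2)Jae/J, which places the doxycycline-dependent activator rtTA in the broadly active ROSA26 locus. The wild-type group had 5 arrays, from littermate controls. The mice of both groups were 8 weeks old and drank water with 2 mg/ml doxycycline for 5 days, so the drug is shared by the controls, whereas the transgenes are not. Each array came from about 10000 uncultured, double-sorted cells, and the labels do not say whether an aliquot came from 1 animal or from a pool. The p-values therefore cover only how far these samples lie apart, and that spread can be technical. Because the ROSA26 locus is active in most tissues, the transgene is not restricted to stem cells. In such bulk samples, fewer dividing cells and less mitotic RNA per cell cannot be told apart.

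Mitotic genes are transcribed in a burst late in the cell cycle, from G2 into mitosis, and their messages and proteins are cleared as the cell exits division. Their promoters are held silent in resting cells by the DREAM complex and switched on in dividing cells by the MuvB core with B-Myb and FoxM1, through a promoter element named the cell cycle genes homology region. NF-Y, which binds CCAAT boxes, contributes to many of them. Adult haematopoietic stem cells are mostly quiescent, with few in division at any time.

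Promoters of 6 members are shown for the 2 motifs that most members hold: Cdk1, Ccnb2, Cdca8 and Ttk hold both, Cep55 holds 1 and Mad2l1 neither. They are RefSeq windows of assembly GRCm38.p6, each 300 bases long and given 5′ to 3′ in the direction of the gene, with TTTGAA (the core of the homology region) or its reverse complement TTCAAA, and CCAAT or its reverse complement ATTGG, in capitals. In Cdca8 the 2 motifs overlap by a base.
Cdk1, chr10:69352863-69353162, minus strand: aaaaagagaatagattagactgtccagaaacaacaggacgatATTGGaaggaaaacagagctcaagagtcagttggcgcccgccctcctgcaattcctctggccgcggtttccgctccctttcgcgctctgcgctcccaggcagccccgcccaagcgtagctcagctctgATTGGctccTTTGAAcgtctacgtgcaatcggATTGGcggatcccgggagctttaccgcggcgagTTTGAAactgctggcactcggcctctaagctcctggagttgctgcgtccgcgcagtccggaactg
Ccnb2, chr9:70421505-70421804, minus strand: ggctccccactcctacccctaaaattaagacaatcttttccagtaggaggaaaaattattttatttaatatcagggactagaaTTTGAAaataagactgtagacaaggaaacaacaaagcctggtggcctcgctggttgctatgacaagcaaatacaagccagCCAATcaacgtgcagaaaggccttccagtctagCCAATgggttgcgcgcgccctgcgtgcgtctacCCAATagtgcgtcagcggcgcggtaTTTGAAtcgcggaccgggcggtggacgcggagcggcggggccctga
Cdca8, chr4:124936868-124937167, minus strand: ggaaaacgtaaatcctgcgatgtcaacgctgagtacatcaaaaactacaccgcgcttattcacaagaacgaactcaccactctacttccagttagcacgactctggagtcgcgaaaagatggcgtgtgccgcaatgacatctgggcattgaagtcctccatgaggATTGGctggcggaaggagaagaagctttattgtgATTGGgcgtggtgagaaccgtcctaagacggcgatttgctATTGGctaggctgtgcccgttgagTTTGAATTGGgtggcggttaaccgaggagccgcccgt
Ttk, chr9:83834439-83834738, plus strand: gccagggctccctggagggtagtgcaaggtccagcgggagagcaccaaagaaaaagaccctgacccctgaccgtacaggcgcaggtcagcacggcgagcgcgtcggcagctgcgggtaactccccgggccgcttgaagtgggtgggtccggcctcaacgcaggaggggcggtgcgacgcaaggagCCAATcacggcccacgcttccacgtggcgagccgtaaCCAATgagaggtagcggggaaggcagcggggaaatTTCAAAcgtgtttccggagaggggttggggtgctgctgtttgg
Mad2l1, chr6:66534971-66535270, plus strand: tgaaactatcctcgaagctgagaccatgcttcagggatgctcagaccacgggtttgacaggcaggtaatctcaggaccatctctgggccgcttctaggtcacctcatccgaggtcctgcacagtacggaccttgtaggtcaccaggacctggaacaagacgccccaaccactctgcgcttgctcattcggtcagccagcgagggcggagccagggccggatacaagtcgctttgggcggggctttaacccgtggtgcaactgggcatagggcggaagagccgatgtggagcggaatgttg
Cep55, chr19:38054734-38055033, plus strand: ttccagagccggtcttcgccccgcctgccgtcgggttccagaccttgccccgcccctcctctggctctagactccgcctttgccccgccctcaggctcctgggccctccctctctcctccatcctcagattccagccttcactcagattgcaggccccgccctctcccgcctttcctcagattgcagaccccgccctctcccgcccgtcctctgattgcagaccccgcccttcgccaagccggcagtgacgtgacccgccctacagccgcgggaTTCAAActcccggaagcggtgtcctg

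A window was available for 39 of the 47 listed members, and a gene was counted where any of its windows held the motif on either strand. TTTGAA was found in 30 of these 39 genes (76.9%), against 20.2% of all 27025 genes with a window. CCAAT was found in 28 members (71.8%), against 41.1% of all genes, and both motifs in 25 members (64.1%), against 7.97%. All 5 spindle motors, all 6 cytokinesis genes with a window and all 5 chromosome structure genes with a window held TTTGAA, and each of the chromosome structure genes also held CCAAT. Fewer did in the spindle checkpoint (2 of 4), the passenger complex (1 of 2) and the spindle assembly list (1 of 3). Among 75 other mitosis genes with a window, 34 (45.3%) held TTTGAA and 25 (33.3%) both motifs. Among 32 DNA replication genes, whose products act in the preceding S phase, 4 (12.5%) held TTTGAA and 19 (59.4%) CCAAT. A match is a description of these letters and not of a bound site. Mad2l1, which held neither motif in its window, is the member with the lowest log2 difference. The next lowest, Ttk (-0.62) and Cdca8 (-0.57), held both, and Nusap1, which held neither, had a difference of 0.07. A relation between motifs and differences was not tested.

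Several features of the arrays bear on these genes. Sox17 itself read 4.37 ± 0.13 in transgenic and 4.21 ± 0.13 in wild-type cells (SD, n = 5 each; limma adjusted p = 0.855), so the direction of every comparison rests on the labels, and the sources used here do not say whether its probes lie inside the transgene. Transgenic array 4 held male cells, with a log2 level of Xist, the RNA of the inactive X chromosome, of 4.32, while the other transgenic arrays read 10.8 to 11.4 and the wild-type arrays 10.9 to 11.3. A first principal component with 40.3% of the variance within groups, computed without the listed genes, split the arrays into one set of transgenic arrays 1, 2 and 3 with wild-type arrays 1 and 2, and a second set of transgenic arrays 4 and 5 with wild-type arrays 3, 4 and 5. The labels do not say what this split stands for. Of 10 stem cell markers, 6 read higher in transgenic cells, with sums of 5019 to 5734 against 4687 to 5658 in wild type. Hlf averaged 10.2 in both groups and Kit, part of the gate, 9.43 in transgenic and 9.90 in wild-type cells. Procr, chosen after its values were seen, averaged 9.21 against 8.12 in wild type without overlap (adjusted p = 0.247). Ly6a, which encodes Sca1, had no probe set of its own here. Of 14 granulocyte and monocyte markers, 13 read higher in transgenic cells, and their summed linear signal was 995 to 2210 on the transgenic arrays, against 777 to 968 on the wild-type arrays. Of 6 genes of progenitors or of cells outside the gate (Cd34, Flt3, Cd48 and others), 4 read higher and 2 lower, with sums of 1032 to 1554 in transgenic and 782 to 972 in wild-type cells. Cd48, part of the gate as CD48-, averaged 6.29 in transgenic and 4.96 in wild-type cells with overlap (limma adjusted p = 0.145). Flt3 averaged 8.59 against 7.06 in wild type without overlap (limma adjusted p = 0.132), and Cd34 9.51 against 9.32. Lower sums in transgenic cells were those of 13 erythroid markers, 1614 to 1868 against 2151 to 2487 in wild type, and of 9 megakaryocyte markers, 1282 to 1457 against 1790 to 2598, where 8 of 9 read lower. Nfe2, the brightest of the megakaryocyte markers, averaged 8.96 in transgenic and 9.16 in wild-type cells. Pf4 averaged 6.88 in transgenic and 9.41 in wild-type cells, while Vwf, named for its opposite direction after its values were seen, averaged 8.00 against 6.72. The 10 endothelial genes summed to 1510 to 1908 in transgenic and 1053 to 1334 in wild-type cells, whereas the sums overlapped for 9 B cell genes (341 to 485 against 403 to 564) and for 10 T and NK cell genes (428 to 706 against 451 to 584). Over all tested probe sets, 53.7% read lower in transgenic cells. The part of these cell types in the values of the mitotic genes was not tested.

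The mitotic genes read slightly lower in Sox17-transgenic than in wild-type stem cells, and none of them passed the test. Of the 46 measured members, 43 had a negative log2 difference, transgenic minus wild type, against 53.7% of all tested probe sets, and the median was -0.23, against -0.01 over all. With limma and Benjamini-Hochberg adjustment over 23410 probe sets, 0 members were below 0.05 (0.141% of all probe sets were), and the lowest adjusted p was 0.218, for Cdk1. At an unadjusted p under 0.05, 6 members were lower (Cdk1, Mad2l1, Cdca8, Ttk, Aurkb and Dlgap5), against 2.9% of all probe sets, and 0 were higher, against 3.7%. In 2 members, Cdk1 and Mad2l1, every transgenic array lay below every wild-type array, as in 0.594% of all probe sets, and in 0 members above, as in 0.876%. The members tend to move together between arrays, so their number is not a number of independent observations. Cenpe, Nusap1 and Racgap1 were the 3 members with a positive difference. Within the first set of arrays 37 members had a negative difference, with a median of -0.19, and within the second 42, with a median of -0.29.

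**Figure D1:**
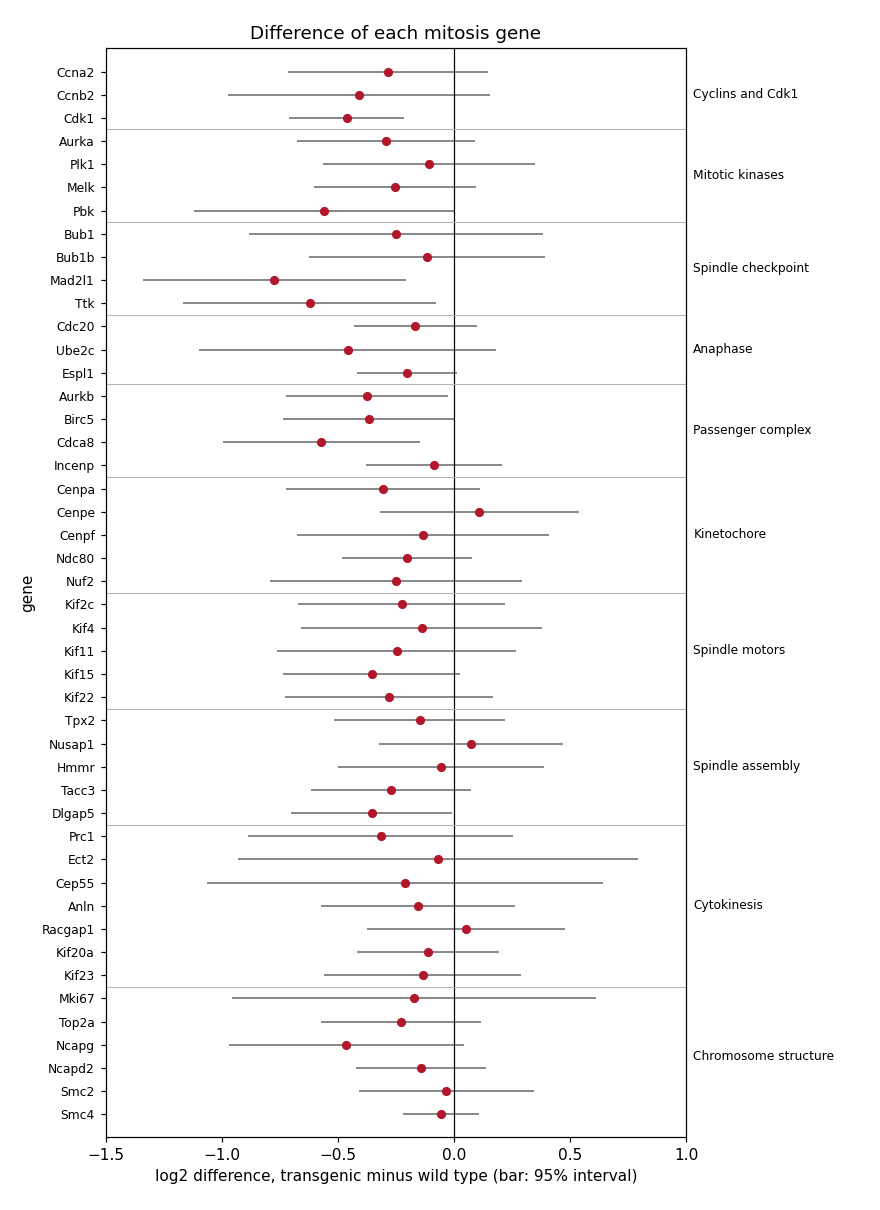
Log2 difference of each of the 46 mitotic genes, transgenic minus wild type (horizontal axis), grouped by role; points are limma estimates and bars their 95% confidence intervals. The points lie between -0.77 and 0.11 with a median of -0.23, and 6 intervals exclude 0.

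Cdk1 is the kinase that drives entry into mitosis, and cyclins A2 (Ccna2) and B2 (Ccnb2) are its partners. Cdk1 read 7.43, 7.14, 7.00, 7.36 and 7.02 on transgenic arrays 1 to 5, against 7.52, 7.76, 7.79, 7.75 and 7.45 on wild-type arrays 1 to 5. The groups did not overlap, but the highest transgenic array and the lowest wild-type array, at 7.43 and 7.45, nearly met, and after quantile normalization they overlapped. The log2 difference was -0.46 (SE 0.11, 95% interval -0.71 to -0.22, adjusted p = 0.218), a ratio of 0.726, and within the 2 sets of arrays it was -0.45 and -0.47. Ccnb2 read 9.90, 8.45, 8.94, 9.32 and 8.67 in transgenic cells, against 8.94, 9.58, 9.58, 9.42 and 9.81 in wild-type cells. Transgenic array 1 held the highest value of all 10 and array 2 the lowest, so the transgenic arrays enclosed the wild-type ones, and the difference of -0.41 (SE 0.26, adjusted p = 0.893) was -0.62 without array 1 and -0.26 without array 2. Ccna2 read 8.27, 6.95, 7.62, 7.85 and 7.62 in transgenic cells, against 7.75, 8.02, 7.94, 7.99 and 8.04 in wild-type cells. Here too the extremes were both transgenic, with an SD of 0.481 against 0.113 in wild type, and the difference of -0.28 (SE 0.20) was -0.44 without array 1 and -0.11 without array 2.

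The spindle assembly checkpoint holds anaphase until every chromosome is attached: Mad2l1 (Mad2) and Bub1b (BubR1) inhibit the anaphase-promoting complex, and Ttk (Mps1) and Bub1 are the kinases that recruit them to unattached kinetochores. Mad2l1 read 8.89, 8.72, 8.48, 8.76 and 7.34 on the transgenic arrays, against 9.10, 9.25, 9.52, 9.17 and 9.03 on the wild-type arrays. The groups did not overlap, and transgenic array 5 stood far below the rest. The difference was -0.77 (SE 0.26, 95% interval -1.34 to -0.21, adjusted p = 0.480), and without transgenic array 5 it was -0.50, a move of over 1.5 times. Ttk read 6.72, 5.89, 6.13, 6.73 and 5.82 in transgenic cells, against 6.89, 6.71, 7.65, 6.47 and 6.69 in wild-type cells. The groups overlapped between 6.47 and 6.73, and the difference of -0.62 (SE 0.25, adjusted p = 0.667) was -0.43 without wild-type array 3, the highest. Bub1 read 7.67, 6.07, 7.23, 7.36 and 6.51 in transgenic cells, against 7.08, 7.28, 7.72, 6.79 and 7.20 in wild-type cells, so that transgenic arrays 2 and 5 lay below all others while arrays 1, 3 and 4 lay within the wild-type range. Its difference of -0.25 (SE 0.29) was -0.0235 without transgenic array 2, -0.13 without array 5, -0.42 without array 1 and -0.12 without wild-type array 3, and that of Bub1b was -0.12 (SE 0.23).

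The chromosomal passenger complex, made of the kinase Aurora B (Aurkb), the scaffold Incenp, survivin (Birc5) and borealin (Cdca8), corrects faulty attachments and later moves to the spindle midzone. Cdca8 read 7.11, 6.24, 6.67, 7.09 and 6.33 on the transgenic arrays, against 7.05, 7.38, 7.49, 6.91 and 7.46 on the wild-type arrays. Transgenic arrays 2, 3 and 5 lay below the wild-type range and arrays 1 and 4 within it, for a difference of -0.57 (SE 0.19, 95% interval -0.996 to -0.147, adjusted p = 0.4995). Aurkb read 7.42, 6.43, 7.11, 7.27 and 7.21 in transgenic cells, against 7.40, 7.43, 7.42, 7.57 and 7.50 in wild-type cells. The wild-type values were close together, with an SD of 0.0689 against 0.385 in transgenic cells, and 4 of 5 transgenic arrays lay below all of them. The difference of Aurkb was -0.37 (SE 0.16, adjusted p = 0.710), and -0.21 without transgenic array 2, the lowest. Birc5 averaged 8.06 ± 0.36 in transgenic and 8.43 ± 0.21 in wild-type cells (SD, n = 5 each), a difference of -0.37 (adjusted p = 0.760), whereas Incenp differed by -0.09 (SE 0.13).

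Among the mitotic kinases, Aurora A (Aurka) matures the centrosomes, Plk1 acts from mitotic entry to cytokinesis, and Melk and Pbk are kinases abundant in proliferating cells. Plk1 read 6.63, 5.26, 6.16, 6.27 and 5.92 in transgenic cells, against 6.07, 6.24, 6.13, 6.03 and 6.30 in wild-type cells. The transgenic range of 1.37 enclosed the wild-type range of 0.267, and the difference was -0.11 (SE 0.21, 95% interval -0.56 to 0.35). Pbk read 7.21, 6.12, 6.32, 7.04 and 6.13 in transgenic cells, against 6.79, 7.38, 7.69, 6.83 and 6.93 in wild-type cells. Its arrays 2, 3 and 5 were the lowest of the 10, as for Cdca8, with a difference of -0.56 (SE 0.26, adjusted p = 0.762). Aurka and Melk differed by -0.29 (SE 0.17) and -0.25 (SE 0.16).

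Anaphase begins when Cdc20 activates the anaphase-promoting complex, the ubiquitin-conjugating enzyme Ube2c starts chains on its substrates, and separase (Espl1) cuts cohesin. Ube2c read 7.95, 6.68, 6.78, 7.00 and 6.42 on the transgenic arrays, against 7.18, 7.74, 6.84, 7.35 and 8.01 on the wild-type arrays. The groups overlapped, with transgenic array 1 near the top of the wild-type range, and the difference was -0.46 (SE 0.29, 95% interval -1.10 to 0.18). Cdc20 and Espl1 differed by -0.17 (SE 0.12) and -0.20 (SE 0.10, adjusted p = 0.789). Espl1 was one of 5 members whose arrays varied more in wild type, with an SD of 0.0925 in transgenic and 0.189 in wild-type cells.

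The kinetochore genes measured were Cenpa, the centromeric histone H3 variant, the motor Cenpe, the large coiled-coil protein Cenpf, and Ndc80 and Nuf2 of the complex that grips microtubules. Their median difference was -0.20, with Cenpa at -0.31 (SE 0.19), Nuf2 at -0.25 (SE 0.25), Ndc80 at -0.20 (SE 0.13), Cenpf at -0.13 (SE 0.25) and Cenpe at 0.11 (SE 0.19, 95% interval -0.32 to 0.54). Cenpa departed from the array order of most members: its values were 6.99, 6.81, 6.53, 7.37 and 7.40 in transgenic cells, against 6.87, 7.17, 7.51, 7.51 and 7.57 in wild-type cells. On both sides its highest values came from the second set of arrays, and transgenic array 5, low for most members, was its highest transgenic array.

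The spindle motors push the poles apart (Kif11 and Kif15), remove tubulin from microtubule ends (Kif2c), and act on chromosome arms (Kif4 and Kif22). All 5 had a negative difference, between -0.36 for Kif15 (SE 0.17, adjusted p = 0.789) and -0.14 for Kif4 (SE 0.24). Kif11 read 8.27, 7.28, 7.73, 8.02 and 6.85 in transgenic cells, against 7.74, 8.14, 7.82, 7.71 and 7.97 in wild-type cells. Both its highest and its lowest value were transgenic, and its SD was 0.571 in transgenic and 0.178 in wild-type cells. Its difference of -0.25 (SE 0.23) was -0.0531 without transgenic array 5, -0.16 without array 2 and -0.41 without array 1. Kif2c differed by -0.23 (SE 0.20), and by -0.0975 without transgenic array 2. Kif22 differed by -0.28 (SE 0.20).

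Spindle assembly factors organise microtubules around chromosomes: Tpx2 activates Aurora A, Tacc3 and Dlgap5 (HURP) stabilise spindle fibres, and Nusap1 and Hmmr bundle or anchor microtubules. Dlgap5 read 6.91, 5.93, 6.48, 6.64 and 6.22 in transgenic cells, against 6.79, 6.69, 6.76, 6.87 and 6.84 in wild-type cells. Transgenic array 1 was the highest of all 10 and the other 4 transgenic arrays lay below every wild-type array, with a difference of -0.35 (SE 0.16, 95% interval -0.70 to -0.01, adjusted p = 0.745). Without transgenic array 2, the lowest, its difference was -0.23, which moved it by over 1.5 times. The remaining members of the list differed by -0.27 (Tacc3, SE 0.16), -0.15 (Tpx2, SE 0.17), -0.06 (Hmmr, SE 0.20) and 0.07 (Nusap1, SE 0.18).

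Cytokinesis is prepared by Prc1, which crosslinks midzone microtubules, by the motors Kif20a and Kif23, by Racgap1 and Ect2, which activate RhoA at the cortex, by anillin (Anln) at the contractile ring and by Cep55 at the midbody. Their differences lay between -0.32 for Prc1 (SE 0.26) and 0.05 for Racgap1 (SE 0.19), with a median of -0.14, and Prc1 differed by -0.17 without transgenic array 2 or 3. Cep55 read 7.42, 5.32, 6.42, 7.22 and 6.02 on the transgenic arrays, against 6.06, 6.33, 7.27, 6.69 and 7.13 on the wild-type arrays. Ect2 read 7.09, 5.92, 6.08, 6.41 and 4.74 in transgenic cells, against 5.98, 6.31, 6.87, 5.35 and 6.08 in wild-type cells. For both genes the transgenic arrays reached higher and lower than the wild-type ones, and the differences, -0.21 (95% interval -1.06 to 0.64) and -0.07 (-0.93 to 0.79), are poorly bounded. Anln, Kif20a and Kif23 differed by -0.15 (SE 0.19), -0.11 (SE 0.14) and -0.14 (SE 0.19).

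The chromosome structure genes were Mki67 (Ki-67), which coats mitotic chromosomes, topoisomerase II alpha (Top2a), which untangles sister DNA, and the condensin subunits Smc2, Smc4, Ncapg and Ncapd2. Mki67 read 8.88, 7.79, 8.08, 7.70 and 6.97 in transgenic cells, against 8.41, 8.78, 8.01, 7.13 and 7.95 in wild-type cells. The groups overlapped over most of their range, and the difference was -0.17 (SE 0.36, 95% interval -0.96 to 0.61, adjusted p = 0.985). Smc4, a subunit of both condensins, read 9.76, 9.84, 9.83, 9.87 and 9.80 in transgenic cells, against 9.99, 9.80, 10.00, 9.73 and 9.86 in wild-type cells. Its transgenic SD of 0.0397 was the smallest of the members, and the interval of its difference was -0.22 to 0.11. Ncapg, a subunit of condensin I, differed by -0.46 (SE 0.23, adjusted p = 0.801) and by -0.28 without transgenic array 5, Top2a by -0.23 (SE 0.16), Ncapd2 by -0.14 (SE 0.13) and Smc2 by -0.03 (SE 0.17).

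**Figure D2:**
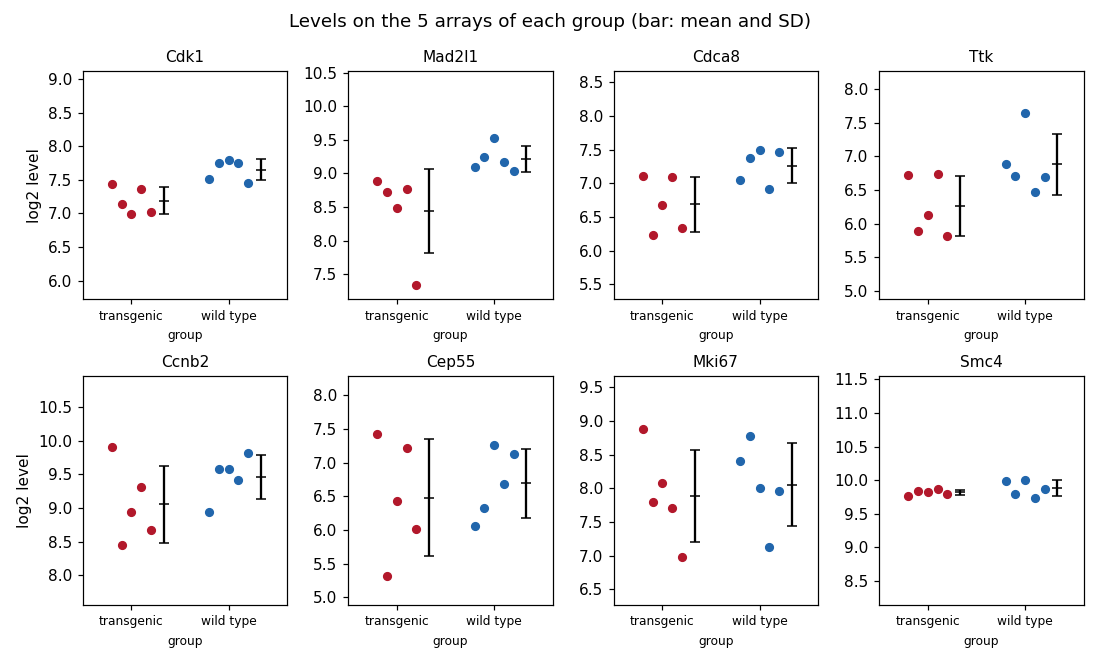
Log2 levels of 8 members on each array, with the transgenic arrays left of the wild-type arrays, points for single arrays and bars for the group mean and SD. Cdk1 and Mad2l1 show no overlap between groups, whereas in Ccnb2 and Cep55 the transgenic points lie on both sides of the wild-type ones.

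The groups also differed in how far their own arrays lay apart. In 41 of 46 members the SD was larger among the transgenic arrays, against 44.9% of all tested probe sets and 46.1% of those brighter than the median. The median SD of the members was 0.403 in transgenic and 0.229 in wild-type cells, while over all tested probe sets it was 0.172 and 0.187. The 5 exceptions were Ttk, Espl1, Kif22, Smc2 and Smc4. No test was made of this count, because the members share their arrays. The larger transgenic SD was not particular to the members. It was found in 56 of 89 other mitosis genes (62.9%) and in 12 of 14 granulocyte and monocyte markers (85.7%). Of the 6 genes of progenitors or of cells outside the gate, 5 had it, against 5 of 13 erythroid markers and 4 of 10 endothelial genes.

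**Figure D3:**
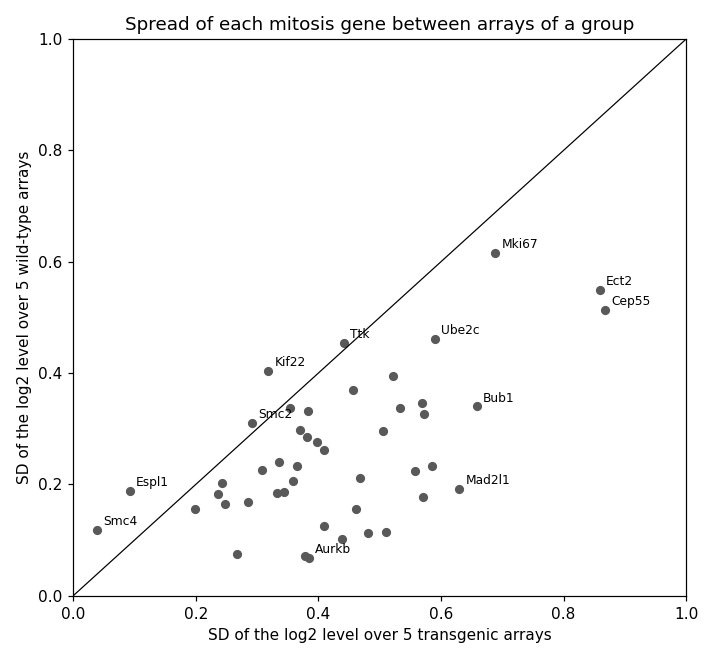
SD of each member's log2 level among the 5 transgenic arrays (horizontal axis) and among the 5 wild-type arrays (vertical axis), with the line of equality. Of the 46 points, 41 lie on the transgenic side of the line.

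The same arrays were high or low for most members. Averaged over the 46 members as a deviation from each gene's mean over all arrays, transgenic arrays 1 to 5 stood at 0.34, -0.47, -0.15, 0.10 and -0.43, and wild-type arrays 1 to 5 at 0.01, 0.18, 0.30, -0.01 and 0.14. The transgenic values spanned 0.82 and the wild-type values 0.31, and transgenic array 1 lay above every wild-type array while arrays 2, 3 and 5 lay below them all. On transgenic array 1, 40 of 46 members were above their overall mean, on array 4 there were 31, on array 3 there were 12, on array 5 there were 5 and on array 2 there were 2. Transgenic array 1 was the highest of its group for 33 members, against 26.3% of all probe sets, and array 2 was the lowest for 24, against 16.4%. Wild-type arrays also moved most members together. Wild-type array 3 was above the overall mean for 43 members and the highest of its group for 24, against 18.9% of all probe sets. The lowest of its group was wild-type array 4 for 20 members, against 20.5%. Arrays 1 and 2, the highest and the lowest, fall in the same set of arrays by the principal component, and so do arrays 4 and 5.

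**Figure D4:**
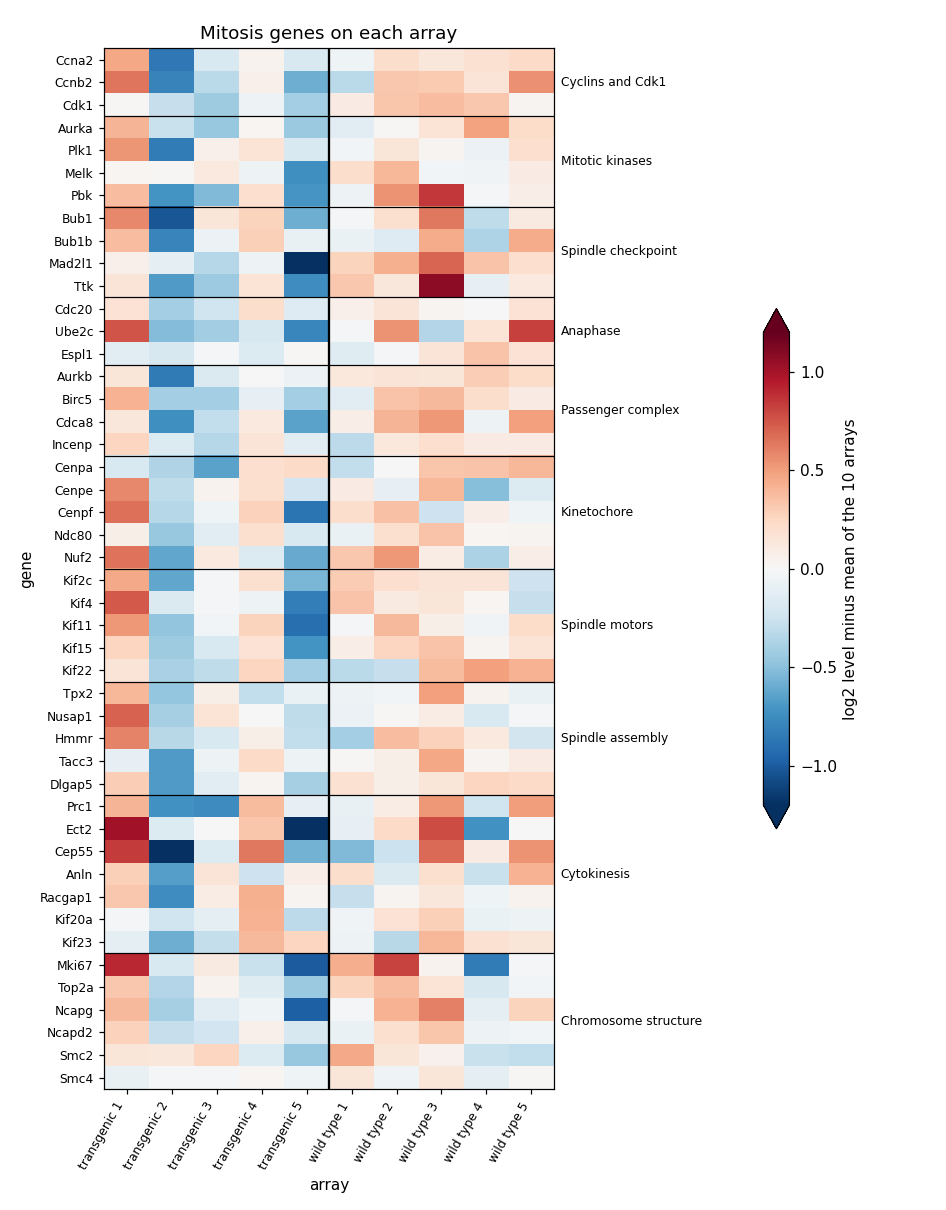
Log2 level of each of the 46 members (rows, by role) on each array (columns, transgenic left of wild type), as the deviation from the gene's mean over all 10 arrays. Transgenic array 1 is above the mean in 40 rows and transgenic array 2 in 2 rows, while wild-type columns differ less.

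The 2 arrays with the lowest mitotic levels differed in the other markers. Transgenic array 5 had the highest granulocyte and monocyte sum, 2210, and also the lowest Mad2l1, Ect2 and Mki67. That sum was not shared by the whole marker list. Of the 14 markers 9 were above their overall mean on array 5, against 10 on transgenic arrays 1 and 4. Lyz2, the brightest of them, had its lowest transgenic value there, 8.57. Transgenic array 2, with the lowest Plk1, Ccnb2 and Cep55, had the lowest transgenic sum of the 6 genes of progenitors or of cells outside the gate, 1032. These genes did not move as one. Flt3 (7.57) and Cd48 (5.54) had their lowest transgenic values there, whereas Cd34 read 9.48, against 9.18 on array 3. Of the 6 genes, 3 were above their overall mean on array 2. The mitotic genes of transgenic array 4, the male array, lay near the middle, and without it the median was -0.27, with 43 members negative, though Smc2 and Racgap1 turned in sign. Without transgenic array 1 all 46 had a negative difference, with a median of -0.34 and 15 members at an unadjusted p under 0.05. The share of all probe sets at that mark was not taken without this array, so the 15 cannot be set beside it. The median moved by over 1.5 times without array 2, to -0.12, and without array 5, to -0.15. The differences of single members changed with single arrays: in 38 of 46, leaving out 1 array turned the sign or moved the value by over 1.5 times. Transgenic array 2 did so for 28 members, array 1 for 23 and array 5 for 20, and each of the other arrays for 7 to 14. A difference near 0 meets this rule on a small shift, as Smc4 did by going from -0.06 to -0.03 without wild-type array 1. The share of all probe sets that meet it was not taken, so these counts do not show that the members depend on few arrays. The 8 members not moved were Cdk1, Aurka, Pbk, Ttk, Espl1, Birc5, Cdca8 and Kif22.

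Other genes of the division cycle were read in the same way, from lists drawn up with earlier results of these data known. Of 89 other measured mitosis genes, 78 had a negative difference (53.7% of all probe sets), with a median of -0.21 (-0.01 over all). At an unadjusted p under 0.05, 23 were lower (2.9% of all) and 0 higher (3.7%), and 0 passed after adjustment (0.141%). The lowest p of these was that of Cenph, a subunit of the inner kinetochore that links centromeric chromatin to the Ndc80 complex. It read 8.25, 8.26, 8.27, 8.52 and 7.70 in transgenic cells, against 9.01, 9.03, 9.16, 9.10 and 8.81 in wild-type cells. The groups did not overlap, and the difference was -0.82 (SE 0.14) with an adjusted p of 0.0527, just short of 0.05. With the array set, itself drawn from these arrays, as a block in the limma fit the adjusted p was 0.0366. After quantile normalization it was 0.0538, and in a fit on all probe sets of the arrays 0.146. Whether Cenph passed thus depended on the setting. The neighbour of Cenph in the same network, Cenpk, differed by -0.49 (SE 0.14, adjusted p = 0.374).

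DNA replication genes, which act in S phase, were read beside the mitotic ones. All 37 measured had a negative difference, against 53.7% of all probe sets, with a median of -0.36, against -0.01. At an unadjusted p under 0.05, 22 were lower, against 2.9% of all, while 0 passed after adjustment, against 0.141%. Their mean deviations were -0.10, -0.20, -0.09, -0.16 and -0.34 on transgenic arrays 1 to 5, against 0.13, 0.37, 0.21, 0.14 and 0.05 on wild-type arrays 1 to 5. These did not overlap, unlike those of the mitotic members, and transgenic array 1, the highest array for the mitotic genes, lay below every wild-type array for the replication genes. The SD was larger among transgenic arrays in 15 of the 37, against 44.9% of all probe sets. Cdc6, which loads the replicative helicase, read 6.23 ± 0.20 in transgenic and 6.95 ± 0.29 in wild-type cells (SD, n = 5 each), a difference of -0.72 (SE 0.15, adjusted p = 0.120). Tyms, thymidylate synthase, differed by -0.54 (SE 0.14) and Dut, which clears dUTP, by -0.36 (SE 0.09), with adjusted p of 0.290 and 0.207. The difference between the 2 lists was not tested.

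**Figure D5:**
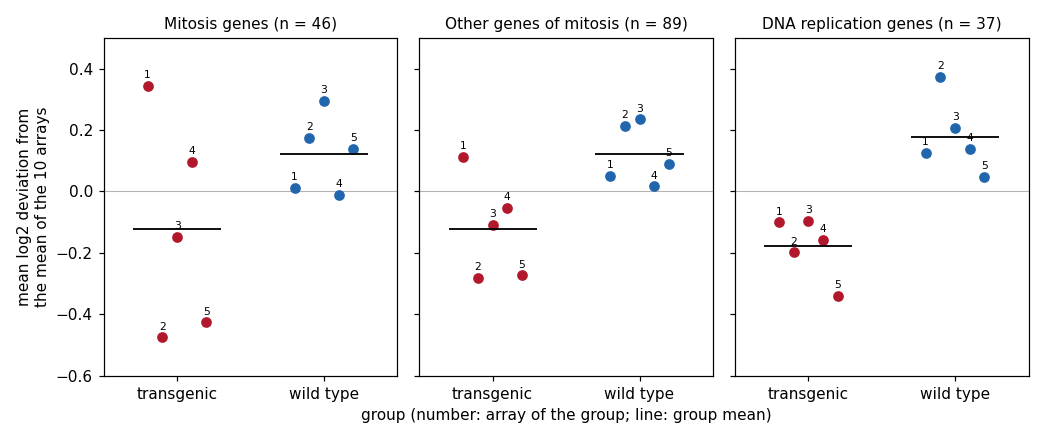
Mean log2 deviation of the mitotic members, the other mitosis genes and the DNA replication genes (panels) on each array, from each gene's mean over all arrays, with transgenic arrays left of wild-type arrays and the array number beside each point. The transgenic members span 0.82 and enclose the wild-type arrays, whereas in the DNA replication panel the groups do not overlap.

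The regulators of mitotic transcription were mixed. Mybl2, which encodes B-Myb, read 5.94, 5.47, 5.81, 6.10 and 6.25 in transgenic cells, against 6.52, 6.89, 6.40, 6.66 and 6.76 in wild-type cells. The groups did not overlap, and the difference was -0.73 (SE 0.15, adjusted p = 0.117). Its transgenic order was not that of the members, since array 5 was its highest. Foxm1 read 6.51 ± 0.27 in transgenic and 6.65 ± 0.34 in wild-type cells (SD, n = 5 each), a difference of -0.14 (SE 0.17, adjusted p = 0.958). The E2F family members E2f8 and E2f1 differed by -0.66 (SE 0.20) and -0.35 (SE 0.12), and Rbl1 (p107), a pocket protein of the DREAM family, by -0.43 (SE 0.13), with adjusted p between 0.412 and 0.557. Of 24 measured regulators, 18 had a negative difference (53.7% of all probe sets), the median was -0.11 (-0.01 over all), and 5 were lower at an unadjusted p under 0.05 (2.9% of all). The subunits of the anaphase-promoting complex and Ube2s, the enzyme that extends its ubiquitin chains, had a median of -0.10 over 15 genes (-0.01 over all). Of these genes 12 were negative (53.7% of all probe sets). At an unadjusted p under 0.05, 0 were lower (2.9% of all) and 0 higher (3.7%).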

How the data were processed

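RNA of sorted haematopoietic stem cells was measured on 10 arrays, with groups and replicate numbers taken from the sample titles. The authors deposited a table of log2 expression values. Per the submitters' processing notes, RMA (robust multi-array average), affy and limma were used, with no version or setting given in the sources used here. RMA gives the probe intensities of the arrays a common distribution and compresses differences between low values. The array medians of the deposited log2 values still ran from 5.45 on transgenic array 5 to 5.56 on wild-type array 1. The levels of single genes are not ranked against each other, though marker signals are summed per list. The values were used without further normalization, pseudocount or filter. Precision is limited by the number of arrays, since there is no read depth.

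Of 35556 probe sets, the platform annotation pairs 21789 with 1 gene symbol and 1621 with several, and leaves 12146 unnamed here. The 23410 named ones were tested two-sided, transgenic minus wild type, with lmFit and eBayes of limma 3.58.1 (R 4.3.3). Adjustment was by Benjamini-Hochberg over all 23410, at a threshold of 0.05. The code of the fit was also run on simulated data with independent noise for each probe set and array. Those data lack the shared movement of genes between the real arrays, so the run says nothing about it. All Entrez identifiers of the 46 measured members were found in the RefSeq table of GRCm38.p6.

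The members, role lists and comparison lists were chosen with earlier results of these data known. The members and comparison lists are described by counts and medians beside those of all probe sets. Role lists and marker lists are described by their own values or summed signals. The text names every member, at most 4 genes of each comparison list by smallest p, Foxm1 and Mybl2. Of each marker list it names at most 3 genes by highest mean, besides Procr and Vwf, which were chosen after their values were seen. The labels name no batch. Same-numbered arrays of the 2 groups correlated at 0.24, 0.35, -0.14, 0.11 and 0.33, so the numbers were not taken as pairs. Alternatives were a replicate block, the array sets, normalization, probe set filters and summaries, variance settings, array weights, a floor at the 20th percentile and leaving out each array.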

Additional observations from a re-analysis of the deposited data

Results flagged for a closer look

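A scan covered 132 groups of 5 arrays, one for each scanned gene and group, and did not include Xist. In 7 of them an array's gap to its nearest neighbour was over 0.71 of the group's range. Chance flags about 1 in 20 groups, which is close to this count. Transgenic array 5 was the low one for 2 members: Mad2l1 read 7.34 there, where its group otherwise read 8.48 to 8.89, and Melk read 4.91, against 5.59 to 5.76. Cdc26, a subunit of the anaphase-promoting complex, read 8.07 on transgenic array 4, against 7.14 to 7.34 on the others. Wild-type array 3 was the high one for Tpx2, at 7.53 against 6.96 to 7.08 on the other wild-type arrays, and for Tacc3, at 7.80 against 7.35 to 7.43. Among wild-type arrays, Incenp read 6.85 on array 1, against 7.25 to 7.36 on the others, and Kif2c read 5.05 on array 5, against 5.45 to 5.60.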

How the results depend on the processing

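No setting brought a member past the threshold: the count stayed at 0 in all 22 alternatives, with the replicate block included, where 6 members were lower at an unadjusted p under 0.05 and the lowest adjusted p was 0.300, for Cdk1. At an unadjusted p under 0.05 there were 2 lower members within the first array set, 3 with a floor at the 20th percentile, and 3 to 15 when single arrays were left out. The share of all probe sets at this mark was not taken in these settings. Members whose groups did not overlap numbered 4 within the first array set, 13 within the second, 1 after quantile normalization and 2 to 4 without single arrays. Fewer arrays make such a split easier. The share of all probe sets without overlap was not taken in these settings, so these counts are no result about the members. The median of the members lay between -0.34 and -0.12 and the count of negative differences between 37 and 46 without single arrays, and 33 to 41 members had the larger SD in transgenic cells. Cenph passed the threshold with the replicate block (adjusted p = 0.0374), with the array set as a block, among brighter probe sets, with array weights, with gene means and without transgenic array 5, and its adjusted p ranged from 0.0288 to 0.5375. Within the first array set the difference was positive for Incenp (0.0070), Kif22 (0.12), Tpx2 (0.0451), Hmmr (0.0437), Ect2 (0.22), Cep55 (0.19), Ube2s (0.25) and Foxm1 (0.0518). Within the second it was -0.11 for Nusap1, 0.0052 for Kif20a, 0.0798 for Kif23 and 0.0439 for Cdc23. Leaving out single arrays turned the sign of Plk1 (-0.25 to 0.09), Bub1b (-0.22 to 0.0657), Cenpe (-0.0205 to 0.22), Cenpf (-0.32 to 0.0679), Kif4 (-0.34 to 0.05), Nusap1 (-0.10 to 0.18), Hmmr (-0.21 to 0.0301), Ect2 (-0.33 to 0.26), Cep55 (-0.45 to 0.0782), Racgap1 (-0.0507 to 0.24), Mki67 (-0.42 to 0.0546) and Smc2 (-0.11 to 0.0774). The causes were not tested. With 5 arrays a group and aliquots not tied to animals, differences of this size are poorly bounded.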
